A study of Homo sapiens with 6 samples.

Results

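The genes described here are 10 enzymes that add acyl groups to lysine or take them off. They comprise 7 lysine acyltransferases (EP300, CREBBP, KAT2A, KAT2B, KAT5, KAT7 and KAT8) and 3 class I deacylases (HDAC1, HDAC2 and HDAC3). They were chosen by gene name, and are 10 of the 60612 genes in the deposited tables. All 10 had enough counts to be among the 16545 genes tested. RNA was sequenced from 6 libraries, 3 labelled ABCF1 and 3 labelled NC-1, and every library carries the cell line label HepG2, an established human line from a liver tumour. The series asks what overexpressing ABCF1 does to transcripts in HepG2 stable lines, and its design text mentions lysine-to-arginine forms of the protein. The labels do not say which form of ABCF1 the libraries carry, what NC-1 stands for, what promoter drives the transgene, or whether each line is a single clone. Nor do they say whether a group's libraries are separate cultures, and the p-values below reflect library-to-library spread that may be technical.

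Lysine acyltransferases move an acetyl group, or a longer acyl group such as crotonyl, from its coenzyme A ester to a lysine side chain of a histone or another protein. EP300 and CREBBP form the p300/CBP family, large coactivators that transcription factors recruit to enhancers and promoters. KAT2A and KAT2B belong to the GNAT family and work within the SAGA and ATAC complexes, while KAT5, KAT7 and KAT8 belong to the MYST family. Class I deacylases are zinc-dependent enzymes that reverse the reaction. HDAC1 and HDAC2 sit in the NuRD, SIN3, CoREST and MiDAC complexes, and HDAC3 in the NCoR complex.

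Several of these enzymes are close pairs, so the coding sequence was compared to see whether reads could be shared. The pairs EP300 and CREBBP, KAT2A and KAT2B, and HDAC1 and HDAC2 held no run of 50 transcript bases in common. Their longest shared coding run was 29 bases for EP300 and CREBBP, 20 for KAT2A and KAT2B, and 17 for HDAC1 and HDAC2. The lines that follow show, for each pair, that run with 30 bases on either side, 5′ to 3′ on the coding strand of the longest coding transcript in GENCODE 29 on GRCh38. Bases that differ within a pair are in capitals.
EP300, coding bases 5233 to 5321: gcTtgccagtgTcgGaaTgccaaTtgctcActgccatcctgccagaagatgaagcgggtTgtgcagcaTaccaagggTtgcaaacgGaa
CREBBP, coding bases 5344 to 5432: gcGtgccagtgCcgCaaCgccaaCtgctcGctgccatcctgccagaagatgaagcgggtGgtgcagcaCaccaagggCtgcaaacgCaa
KAT2A, coding bases 328 to 407: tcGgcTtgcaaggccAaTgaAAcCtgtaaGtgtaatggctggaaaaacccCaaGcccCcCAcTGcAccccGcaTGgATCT
KAT2B, coding bases 292 to 371: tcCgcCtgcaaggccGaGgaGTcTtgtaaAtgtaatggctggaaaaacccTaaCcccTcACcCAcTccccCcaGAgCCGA
HDAC1, coding bases 235 to 311: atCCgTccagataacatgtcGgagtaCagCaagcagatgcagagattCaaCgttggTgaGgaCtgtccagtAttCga
HDAC2, coding bases 238 to 314: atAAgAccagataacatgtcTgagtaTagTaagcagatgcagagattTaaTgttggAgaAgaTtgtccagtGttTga
In these windows 10 of 89 bases differed between EP300 and CREBBP, 23 of 80 between KAT2A and KAT2B, and 13 of 77 between HDAC1 and HDAC2. The processed pseudogene HDAC1P2 shared 9 of the 2075 runs of 50 bases in HDAC1, or 0.434%, and had 0 to 4 counts per library.

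The libraries held 62323034 to 77394510 counts in genes, and 20356 to 21012 genes had at least 1 count. On the first principal component, which held 29.6% of the variance, replicate 3 labelled ABCF1 and replicate 2 labelled NC-1 lay apart at 47.2 and 42.0, against -29.3 to -6.96 in the other 4 libraries. The label HepG2 was checked against liver markers. Of 13, all but HNF4A (14.99 to 31.2 RPKM) stayed under 1 RPKM (reads scaled by library depth and by length of the transcript) in every library. The marker sum was 18.4 to 31.3 RPKM in the libraries labelled ABCF1 and 15.1 to 26.9 RPKM in those labelled NC-1. ALB, the serum albumin gene, reached at most 0.179 RPKM and FOXA2, a liver transcription factor, was at 0. The epithelial keratin genes KRT8 (688 to 893 RPKM) and KRT18 (608 to 801 RPKM) were high, while the epithelial genes EPCAM (4.96 to 8.21 RPKM) and CDH1 (at most 0.080 RPKM) were low. Of the mesenchymal markers, VIM was high (767 to 842 RPKM), COL1A1 had 10.3 to 15.6 RPKM, COL3A1 at most 0.076 RPKM and COL1A2 was at 0. The liver markers other than HNF4A thus did not bear out the label HepG2, which is used here as given. In bulk RNA, fewer cells of a type and less RNA per cell cannot be told apart.

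ABCF1 itself, which encodes a ribosome-associated ATP-binding cassette protein of translation initiation, did not go the way of its label. It had 6406, 7442 and 7944 counts in libraries labelled ABCF1, against 11583, 10098 and 10635 in those labelled NC-1. Every library labelled ABCF1 therefore lay below every NC-1 library. As CPM, counts scaled to TMM-adjusted library size, this was 106 ± 4.05 CPM (SD, n = 3) in libraries labelled ABCF1 and 158 ± 3.62 CPM (SD, n = 3) in NC-1. The log2 fold change was -0.57 (SE 0.08, adjusted p = 0.25 in edgeR's quasi-likelihood test). It passed in DESeq2 (adjusted p = 6.1e-08) and in edgeR once the libraries that lay apart were a covariate (adjusted p = 8.9e-04). In all that follows, a fold change is the libraries labelled ABCF1 over NC-1, and the label is not taken to show overexpression.

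In level, the deacylases HDAC1 and HDAC3 led the 10 enzymes and the coactivators EP300 and CREBBP were near the bottom with KAT2B. Over all 6 libraries HDAC1 had the highest RPKM, at 60.9 ± 1.92 (SD, n = 6), above 92.4% of tested genes. HDAC3 followed at 45.1 ± 2.03 RPKM, above 89.6% of tested genes. Next came KAT2A (23.6 ± 2.10 RPKM), KAT5 (21.0 ± 2.82 RPKM), HDAC2 (19.5 ± 4.73 RPKM) and KAT8 (18.0 ± 1.34 RPKM). The ranges of neighbours among these 4 overlapped, although KAT2A exceeded KAT5 in all 6 libraries and its range lay above that of KAT8. KAT5 exceeded HDAC2, and HDAC2 exceeded KAT8, in 4 of 6 libraries. KAT7 averaged 9.93 ± 1.93 RPKM and lay below KAT8 in every library without overlap of their ranges. CREBBP averaged 5.25 ± 1.47 RPKM, EP300 3.50 ± 1.40 RPKM and KAT2B 3.35 ± 0.67 RPKM. EP300 exceeded KAT2B in 4 of 6 libraries, and CREBBP exceeded EP300 in all 6. Ordered by CPM per kilobase of the longest transcript, 8 of the 10 kept their place, and HDAC2 and KAT8 changed places. That length was 9874 nt for HDAC2 and 2500 nt for KAT8. The deposited counts and RPKM imply 3970 to 7999 nt for HDAC2 and 1601 to 1654 nt for KAT8, as described below. The RPKM of HDAC2 does not follow its counts, so its place beside KAT5 and KAT8 is uncertain. Summed within a library, the 7 acyltransferases came to 90.3, 89.6 and 76.9 RPKM in the libraries labelled ABCF1, against 91.5, 67.7 and 91.2 RPKM in NC-1. The lower sums were those of the pair of libraries that lay apart. The 3 deacylases came to 128, 122 and 125 RPKM in libraries labelled ABCF1, against 135, 119 and 123 RPKM in NC-1, and these ranges overlapped.

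**Figure D1:**
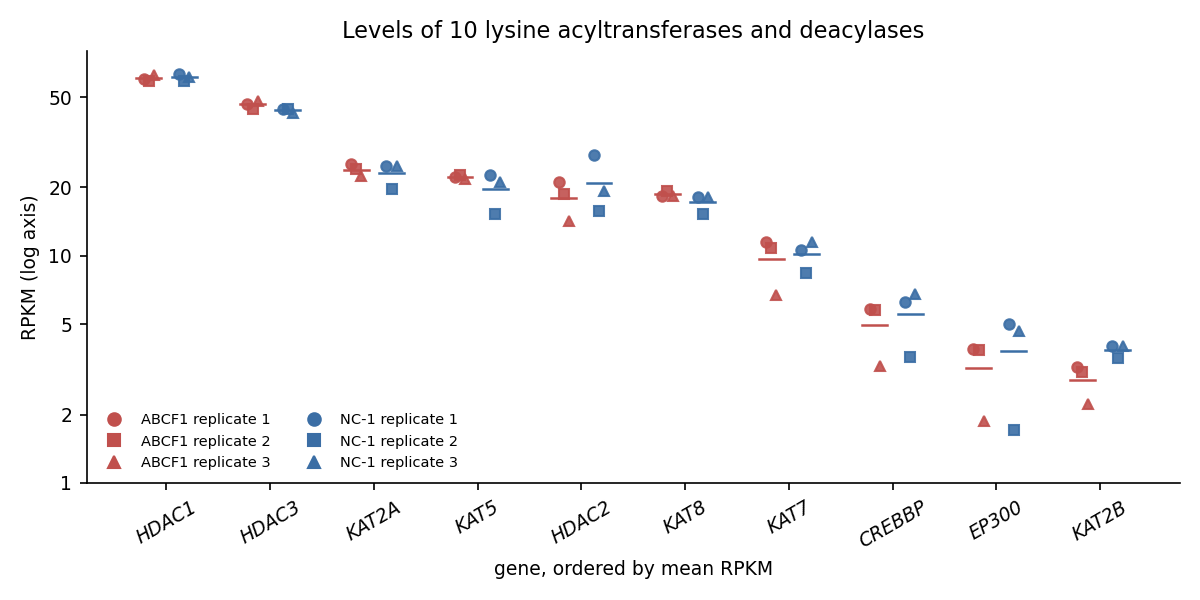
RPKM of the 10 enzymes on a log axis, ordered by mean over the 6 libraries, with libraries labelled ABCF1 left of NC-1 for each gene; points are libraries and bars are group means. HDAC1 lies between 58.8 and 63.2 RPKM in every library, while EP300 and CREBBP are lowest in ABCF1 replicate 3 and NC-1 replicate 2.

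Between the groups, none of the 10 enzymes passed the test. edgeR called 0% of tested genes higher and 0% lower at an adjusted p under 0.05, so that test separates no enzyme from the background. Without adjustment, 6.27% of genes were higher and 8.54% lower at a p under 0.05, and 0 of the 10 enzymes were. DESeq2's Wald test called 2.19% higher and 3.45% lower of the 11089 genes to which it gave an adjusted p, again with 0 of the 10. Of the enzymes, 6 of 10 had a positive fold change, with a median log2 of 0.07, beside 50.1% of all tested genes and a median of 0.00. In CPM, the groups did not overlap for KAT5, KAT8, HDAC1 and HDAC3, with ABCF1 above, or for KAT2B, with ABCF1 below. In RPKM they did not overlap for KAT8 and HDAC3, with ABCF1 above, and for KAT2B, with ABCF1 below. Over all tested genes, 10.7% were above without overlap in CPM and 12.4% below. No such share was computed in RPKM, so the RPKM overlaps have no background to be read against.

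The p300/CBP pair varied more between libraries of a group than between the groups. EP300 (ENSG00000100393, GRCh38 chromosome 22, 41092592 to 41180077, plus strand) encodes the p300 acetyltransferase. Its counts gave 37.8, 37.3 and 18.9 CPM in the libraries labelled ABCF1, against 44.9, 16.1 and 43.1 CPM in NC-1. A single library in each group was low, and the groups overlapped. The means were 31.3 ± 10.8 CPM in libraries labelled ABCF1 and 34.7 ± 16.1 CPM in NC-1 (SD, n = 3 each), with a log2 fold change of -0.15 (SE 0.40, adjusted p = 0.89 in edgeR's test). A range of 2 SE each way ran from -0.95 to 0.65, and covers differences in either direction. Without ABCF1 replicate 3 the value was 0.12, without NC-1 replicate 1 0.08, and without NC-1 replicate 3 0.04. CREBBP (ENSG00000005339, chromosome 16, 3725054 to 3880713, minus strand), which encodes the CREB-binding protein, showed the same pair of low libraries. It had 66.5, 63.8 and 39.2 CPM in libraries labelled ABCF1, against 67.2, 38.7 and 76.1 CPM in NC-1. Its log2 fold change was -0.10 (SE 0.28, adjusted p = 0.89), with 2 SE each way from -0.66 to 0.46. It was 0.11 without ABCF1 replicate 3 and 0.09 without NC-1 replicate 3. EP300 over CREBBP, as a ratio of RPKM, was 0.668, 0.670 and 0.570 in libraries labelled ABCF1, against 0.798, 0.479 and 0.685 in NC-1.

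Those low values came from the libraries that lay apart. ABCF1 replicate 3 and NC-1 replicate 2 averaged 17.5 CPM of EP300, which was 42.9% of the 40.8 CPM mean of the other 4 libraries. For CREBBP the share was 56.9% and for KAT7 77.7%. These 3 enzymes were lower in both libraries than in all of the other 4, as were 18.9% of tested genes. The 3 have long annotated transcripts, of 9587 nt (EP300), 10803 nt (CREBBP) and 9644 nt (KAT7). Genes of 7500 nt or more had a median log2 difference of -0.39 between those libraries and the rest, over 1419 genes. EP300, at -1.22, was lower than all but 2.11% of these genes, CREBBP, at -0.81, lower than all but 8.53%, and KAT7 was at -0.36. HDAC2, whose longest transcript has 9874 nt, stood at 0.20 on the same scale, above 93.6% of these genes. These lengths are those of the longest annotated transcript. The lengths implied by deposited counts and RPKM, described below, were 5330 to 6687 nt for KAT7 and 3970 to 7999 nt for HDAC2. Between the libraries that lay apart, ABCF1 replicate 3 exceeded NC-1 replicate 2 by a log2 of 0.23 for EP300 and 0.02 for CREBBP.

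**Figure D2:**
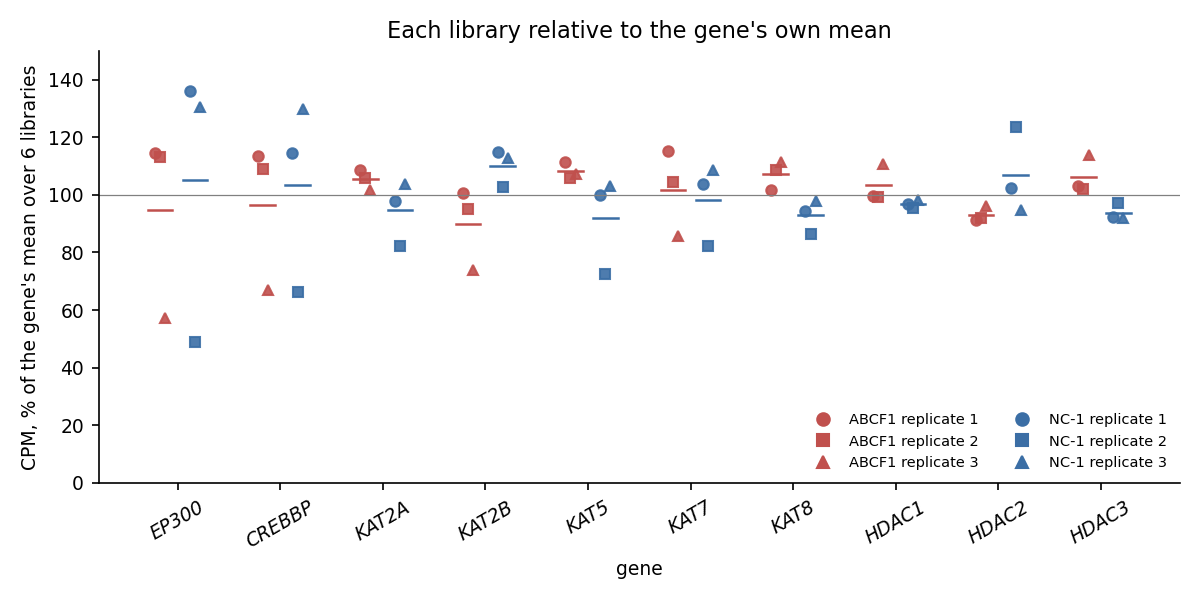
CPM of each library as a percent of the gene's mean over 6 libraries, with libraries labelled ABCF1 left of NC-1; bars are group means. ABCF1 replicate 3 and NC-1 replicate 2 are the low points of EP300 and CREBBP, whereas HDAC2 is highest in NC-1 replicate 2.

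The promoters of EP300 and CREBBP are shown as windows of 300 bases across the annotated start (RefSeq, GRCh38.p14), 5′ to 3′ on the gene's strand. Whether promoter sequence has a part in the low values of these genes was not tested. Capitals mark the GC box, GGGCGG on either strand, a motif known to bind SP1, with overlapping matches counted separately.
EP300 promoter, plus strand, chr22:41092342-41092641: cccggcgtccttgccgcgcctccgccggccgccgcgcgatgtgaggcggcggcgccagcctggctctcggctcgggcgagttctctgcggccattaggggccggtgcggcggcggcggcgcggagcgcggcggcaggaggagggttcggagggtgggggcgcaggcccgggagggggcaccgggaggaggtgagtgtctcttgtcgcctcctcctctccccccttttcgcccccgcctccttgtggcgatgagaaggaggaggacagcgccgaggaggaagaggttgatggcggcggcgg
CREBBP promoter, minus strand, chr16:3880664-3880963: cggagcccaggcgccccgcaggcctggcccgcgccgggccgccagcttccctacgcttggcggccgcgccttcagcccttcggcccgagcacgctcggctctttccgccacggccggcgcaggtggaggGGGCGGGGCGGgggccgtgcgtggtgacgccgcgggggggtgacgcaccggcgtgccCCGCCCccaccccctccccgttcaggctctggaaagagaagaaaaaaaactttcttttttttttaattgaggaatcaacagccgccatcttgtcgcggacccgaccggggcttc
CREBBP had 3 matches and EP300 had 0 in this window. KAT7, also low in the libraries that lay apart, had 0 in its own window, which is not shown. A second annotated CREBBP start, whose window is chr16:3880071-3880370 and is not shown, had 4 matches. The motif occurs in 44.95% of the 35116 RefSeq promoters of the same length. RefSeq promoter entries matched 9 of the 10 enzymes, all but KAT8.

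The GNAT enzymes KAT2A and KAT2B had fold changes of opposite sign, and neither passed the test. KAT2A (ENSG00000108773, chromosome 17, 42113111 to 42121367, minus strand) encodes GCN5, the acetyltransferase of SAGA and ATAC. It had 86.4, 84.0 and 81.0 CPM in libraries labelled ABCF1, against 77.8, 65.5 and 82.5 CPM in NC-1, and the groups overlapped. Its log2 fold change was 0.15 (SE 0.11, adjusted p = 0.53), and 0.06 without NC-1 replicate 2. KAT2B (ENSG00000114166, chromosome 3, 20040446 to 20154404, plus strand), which encodes PCAF, its paralogue, had 15.8, 14.9 and 11.6 CPM in libraries labelled ABCF1, against 18.1, 16.1 and 17.7 CPM in NC-1. All 3 ABCF1 libraries lay below all 3 NC-1 libraries. Its means were 14.1 ± 2.20 CPM in libraries labelled ABCF1 and 17.3 ± 1.04 CPM in NC-1 (SD, n = 3 each). The log2 fold change was -0.29 (SE 0.14, adjusted p = 0.36), the largest in size among the 10 in that fit, and -0.17 without ABCF1 replicate 3. The ratio of KAT2A to KAT2B in RPKM was 7.82, 7.88 and 10.1 in libraries labelled ABCF1, against 6.16, 5.59 and 6.23 in NC-1. That ratio did not overlap between the groups, but it was chosen after the values were seen and was not tested.

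The MYST enzymes KAT5, KAT7 and KAT8 also showed no called difference. KAT5 (ENSG00000172977, chromosome 11, 65711996 to 65719604, plus strand) encodes TIP60, which acetylates histone H4 and the DNA damage kinase ATM. It had 50.04, 47.5 and 48.2 CPM in libraries labelled ABCF1, against 44.9, 32.5 and 46.2 CPM in NC-1, with NC-1 replicate 2 far below the rest. The log2 fold change was 0.24 (SE 0.14, adjusted p = 0.46), and 0.09 without that library. KAT5 shares 1439 of its 3732 exonic bases with RNASEH2C on the opposite strand, which had 4155 to 7231 counts. As use of strand is not given in the sources used here, reads of the 2 genes may not be told apart and the KAT5 value is uncertain. KAT8 (ENSG00000103510, chromosome 16, 31114489 to 31131393, plus strand) encodes MOF, which acetylates lysine 16 of histone H4. It had 29.6, 31.7 and 32.5 CPM in libraries labelled ABCF1, against 27.5, 25.2 and 28.5 CPM in NC-1, without overlap. The log2 fold change was 0.21 (SE 0.10, adjusted p = 0.36). KAT7 (ENSG00000136504, chromosome 17, 49788648 to 49835026, plus strand) encodes HBO1, which acetylates histone H3 and H4 tails with BRPF or JADE scaffolds. It had 65.2, 59.1 and 48.4 CPM in libraries labelled ABCF1, against 58.7, 46.6 and 61.5 CPM in NC-1. The groups overlapped, with a log2 fold change of 0.05 (SE 0.15, adjusted p = 0.90) that was -0.05 with library size only and -0.09 on the log2(RPKM + 1) scale. Without ABCF1 replicate 1 it was -0.05 and without NC-1 replicate 2 -0.06.

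Among the class I deacylases, the fold change was positive for HDAC3 and HDAC1 and negative for HDAC2, and none passed the test. HDAC3 (ENSG00000171720, chromosome 5, 141620876 to 141636849, minus strand), the catalytic subunit of the NCoR complex, had 95.8, 94.9 and 106 CPM in libraries labelled ABCF1, against 85.9, 90.6 and 85.4 CPM in NC-1. The groups did not overlap. The log2 fold change was 0.18 (SE 0.09, adjusted p = 0.38). HDAC1 (ENSG00000116478, chromosome 1, 32292083 to 32333635, plus strand), a histone deacetylase of the complexes named above, had 141, 141 and 157 CPM in libraries labelled ABCF1, against 137, 135 and 139 CPM in NC-1. Its log2 fold change was 0.09 (SE 0.09, adjusted p = 0.64), and it was 0.05 without ABCF1 replicate 3, -0.0079 with library size only and -0.01 on the log2(RPKM + 1) scale. HDAC2 (ENSG00000196591, chromosome 6, 113933028 to 114011308, minus strand), the partner of HDAC1, had 92.2, 92.7 and 96.8 CPM in libraries labelled ABCF1, against 103, 125 and 95.4 CPM in NC-1. The groups overlapped, and the log2 fold change was -0.20 (SE 0.11, adjusted p = 0.45), and -0.08 without NC-1 replicate 2.

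HDAC2 was also the enzyme whose deposited counts and deposited RPKM disagreed most between libraries. Dividing the count by RPKM, scaled by library depth, gives the transcript length that the RPKM values in effect used. Each library's lengths were then scaled so that their median over genes was the same in every library. For HDAC2 it was 4344, 4848 and 6318 nt in libraries labelled ABCF1, against 3970, 7999 and 5067 nt in NC-1. The longest values, 6318 and 7999 nt, were those of the libraries that lay apart. For HDAC2 the highest was 2.01 times the lowest, a spread above that of 99.4% of 11825 genes, whose median was 1.05. These were tested genes with a mean RPKM of at least 1 and at least 20 counts in every library. KAT7 had a spread of 1.25, and no other enzyme exceeded 1.10. HDAC2 has 12 annotated protein-coding transcripts, of 502 to 9874 nt, in GENCODE 29. The RPKM of HDAC2, 21.1, 18.7 and 14.3 in libraries labelled ABCF1 against 27.7, 15.7 and 19.3 in NC-1, therefore does not follow its counts. HDAC1 over HDAC2 in RPKM was 2.86, 3.14 and 4.40 in libraries labelled ABCF1, against 2.28, 3.75 and 3.18 in NC-1. As a ratio of counts, HDAC1 over HDAC2 was 1.53, 1.52 and 1.62 in libraries labelled ABCF1, against 1.33, 1.09 and 1.45 in NC-1, without overlap. These ratios and lengths were computed after the values were seen and were not tested.

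**Figure D3:**
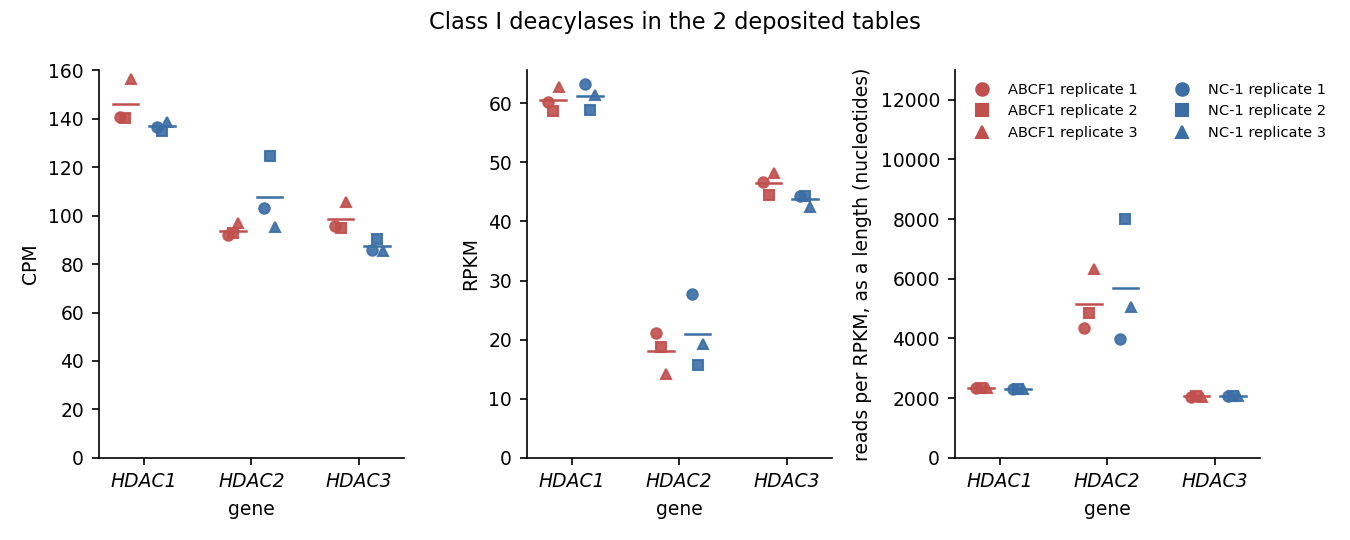
CPM (left), RPKM (middle) and the length implied by the 2 deposited tables in nucleotides (right) for HDAC1, HDAC2 and HDAC3, with libraries labelled ABCF1 left of NC-1; points are libraries and bars are group means. The implied length is nearly flat for HDAC1 and HDAC3 and runs from 3970 to 7999 nt for HDAC2.

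Fits that take account of the libraries that lay apart changed which enzymes were called. With the side of the first principal component as a covariate (the library set), edgeR called 12.9% of genes higher and 12.5% lower. Of the 10 enzymes, HDAC3 was called higher (log2 fold change 0.18, SE 0.05, adjusted p = 0.020). KAT2B (-0.30, SE 0.09, adjusted p = 0.031) and HDAC2 (-0.19, SE 0.06, adjusted p = 0.049) were called lower. A share of 1 in 10 higher and 2 in 10 lower is near the background of that fit. With the 4 remaining libraries alone, edgeR called 5.68% of genes higher and 5.1% lower, and none of the 10 enzymes. The lowest adjusted p-values of the 10 in that fit were those of EP300 and HDAC3. EP300 stood at -0.23 (SE 0.07, adjusted p = 0.064), against -0.15 (SE 0.40) over 6 libraries without a covariate. HDAC3 stood at 0.16 (SE 0.05, adjusted p = 0.088). When a smooth trend of each library on GC content and transcript length was also removed, 5.06% of genes were called higher and 1.69% lower. Then KAT7 was the only enzyme called (0.19, SE 0.05, adjusted p = 0.049), and HDAC2 turned positive, at 0.11 (adjusted p = 0.30). KAT2B stood at -0.18 (adjusted p = 0.26) and HDAC3 at 0.07 (adjusted p = 0.43) in that fit. The trend used the longest annotated transcript, of 9644 nt for KAT7 and 9874 nt for HDAC2. The deposited counts and RPKM imply shorter lengths, of 5330 to 6687 nt for KAT7 and 3970 to 7999 nt for HDAC2. For KAT8 the trend used 2500 nt, and the implied lengths were 1601 to 1654 nt. KAT8 stood at 0.11 (adjusted p = 0.39) in the fit with the offset. How far this moved the values of KAT7, HDAC2 and KAT8 was not tested. No enzyme was called in more than 1 of these fits. The library set came from the tested counts themselves, so its p-values are not those of a planned design.

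**Figure D4:**
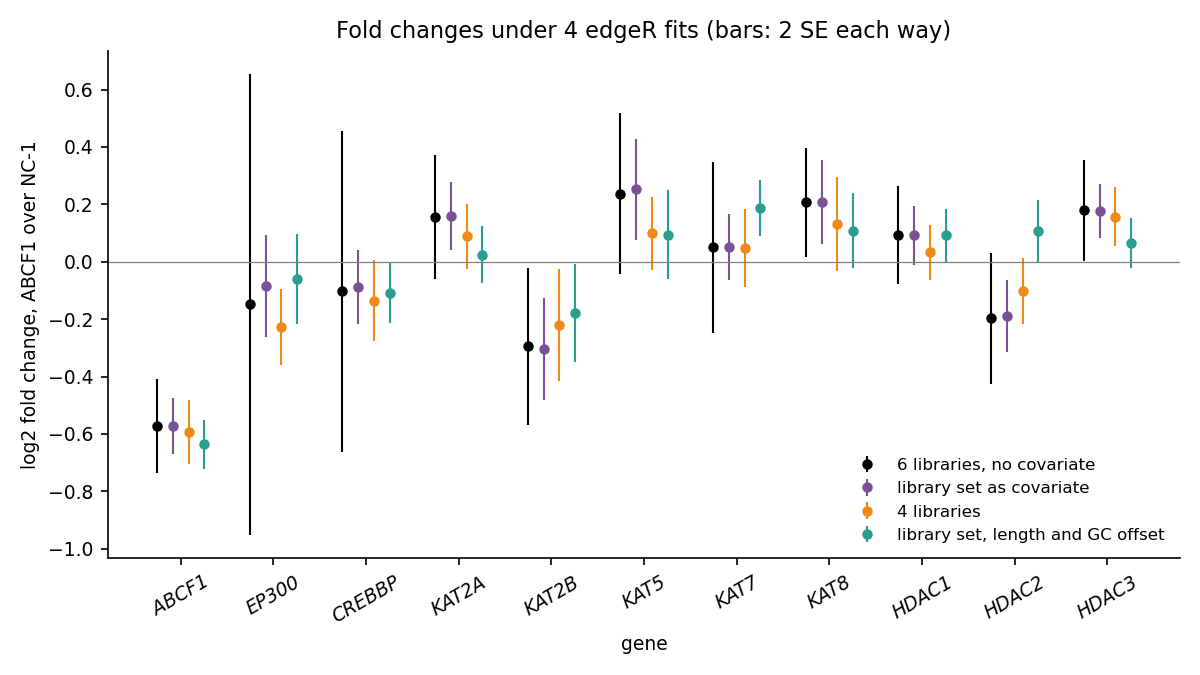
Log2 fold change (libraries labelled ABCF1 over NC-1) of ABCF1 and the 10 enzymes in 4 edgeR fits, given by colour; points are estimates and bars run 2 SE each way. The bars of EP300 shorten once the library set is a covariate, and HDAC2 lies below 0 in 3 fits and at 0.11 with the length and GC offset.

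Fold changes over all tested genes went with GC content. The median log2 fold change was -0.26 for transcripts under 40% GC and 0.18 for those of 60% or more. HDAC2 (38.2% GC), KAT2B (44.3%), KAT7 (46.0%) and HDAC1 (47.5%) lie at the lower end of the 10, and KAT2A (59.9%) and KAT5 (58.6%) at the upper end. Against genes of similar GC content, KAT2B was above 25.7% of them, EP300 above 17.8% and CREBBP above 14.3%. HDAC2 was above 61.7% of its GC bin, KAT8 above 73.2% and HDAC3 above 69.0%. The part of GC content in any single difference was not tested beyond the fit with the offset.

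**Figure D5:**
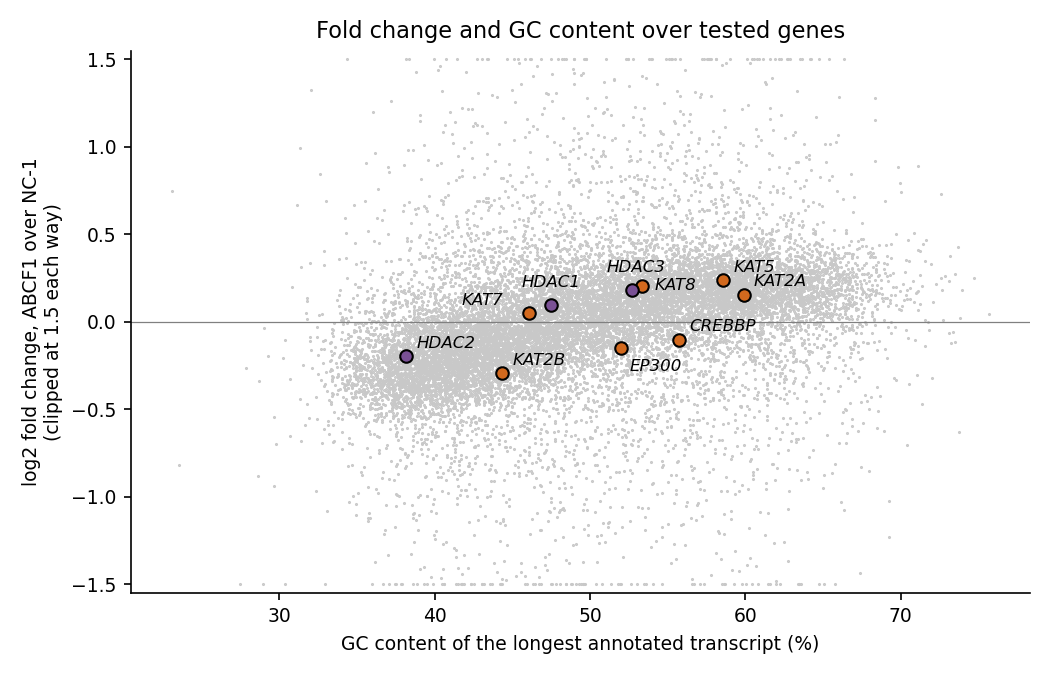
Log2 fold change (libraries labelled ABCF1 over NC-1, clipped at 1.5) against GC content in percent of the longest annotated transcript; grey points are tested genes, orange points acyltransferases and purple points deacylases. The grey cloud rises with GC content, and HDAC2, at 38.2% GC, lies at -0.20.

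Genes that work with these enzymes were read from 13 lists with 154 genes, of which 153 were tested. edgeR's main test called none of them in either direction. With the library set, 23 were called higher and 29 lower, beside 12.9% and 12.5% of all tested genes. With the offset the counts were 7 and 5, beside 5.06% and 1.69%, and with 4 libraries 6 and 8, beside 5.68% and 5.1%. The counts per list below are read against the same shares. Over the 12 other lysine acetyltransferases the median log2 was -0.29, and 1 of 12 was positive. In the library set fit 9 of the 12 were called lower and 0 higher, with the offset 0 and 0, at a median of -0.10. HAT1, which acetylates newly made histone H4, averaged 24.9 ± 0.79 RPKM in libraries labelled ABCF1 and 32.1 ± 4.64 RPKM in NC-1 (SD, n = 3 each), a log2 fold change of -0.27 (adjusted p = 0.35). The 8 other zinc-dependent deacylases had a median of 0.09 (2 called higher and 0 lower in the library set fit), and the 7 sirtuins 0.07 (2 and 1). SIRT2, a mainly cytoplasmic NAD-dependent deacetylase, averaged 15.6 ± 0.29 RPKM in libraries labelled ABCF1 and 13.1 ± 1.07 RPKM in NC-1, a log2 fold change of 0.30 (adjusted p = 0.27).

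The medians of the complexes that hold these enzymes ran from -0.11 to 0.00. They were -0.04 for the 23 SAGA and ATAC subunits (2 called higher and 3 lower in the library set fit), 0.00 for 16 TIP60 subunits (3 and 1), -0.03 for 8 HBO1 and MOZ scaffolds (0 and 0), and -0.11 for 11 MSL and NSL subunits (1 and 4). On the deacylase side, they were -0.01 for 11 NuRD subunits (1 and 0), -0.07 for 13 SIN3 subunits (1 and 3), 0.00 for 9 CoREST and MiDAC subunits (1 and 1), and -0.05 for 5 NCoR complex subunits (0 and 1). HMG20B, a CoREST subunit, had the highest RPKM among its list, at 451 ± 79.3 in libraries labelled ABCF1 and 344 ± 38.2 in NC-1 (SD, n = 3 each). Its log2 fold change was 0.30, with adjusted p = 0.29 without a covariate, 0.0019 with the library set and 0.024 with the offset, where it was 0.15. In each list the 2 genes of highest mean RPKM had log2 fold changes from -0.27 (HAT1) to 0.30 (SIRT2 and HMG20B) in the main test, with an adjusted p of 0.27 or more. GTF3C4 of the general transcription factor TFIIIC stood at -0.23 (SE 0.16), the deacetylases HDAC7 at 0.05 (SE 0.09), HDAC6 at 0.14 (SE 0.13) and SIRT6 at 0.19 (SE 0.14). Among acyltransferase complexes, USP22, the SAGA deubiquitinase, stood at -0.03 (SE 0.16), TAF9 at 0.08 (SE 0.09), MORF4L2, a TIP60 complex subunit, at -0.03 (SE 0.08), and WDR5, a scaffold of several histone-modifying complexes, at 0.06 (SE 0.08). MORF4L1 was at 0.05 (SE 0.10), ING4 at 0.11 (SE 0.12), JADE2 at 0.05 (SE 0.14) and MCRS1 at 0.27 (SE 0.09). RBBP7, a histone-binding subunit of NuRD, stood at -0.08 (SE 0.08), MTA1 of the same complex at 0.03 (SE 0.09) and KDM1A, the CoREST demethylase, at 0.00 (SE 0.09). In the SIN3 complex BRMS1 was at 0.29 (SE 0.16) and SAP18 at 0.11 (SE 0.16), and GPS2 of the NCoR complex was at 0.26 (SE 0.12). In the reader list TRIM28 was at 0.18 (SE 0.08) and BRD2 at 0.06 (SE 0.14). The 18 readers of acylated lysine had a median of 0.00 (3 called higher and 3 lower in the library set fit). In the list of 15 genes for acyl-CoA and lactate supply, the median was 0.10. In the library set fit 7 were called higher and 3 lower, with the offset 3 and 2, and with 4 libraries 1 and 1. LDHA, which makes lactate from pyruvate, had 2250 ± 66.4 RPKM in libraries labelled ABCF1 and 2297 ± 61.1 RPKM in NC-1. Its RPKM means were thus lower in libraries labelled ABCF1, whereas its log2 fold change on TMM-scaled counts was positive, at 0.10 without a covariate (adjusted p = 0.52) and 0.18 with the offset (adjusted p = 0.0026). LDHB, the isozyme that favours the reverse reaction, had 565 ± 52.1 RPKM in libraries labelled ABCF1 and 695 ± 113 RPKM in NC-1. Its log2 fold change was -0.20 without a covariate (adjusted p = 0.55) and -0.21 with the offset (adjusted p = 0.017).

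The nearest expression profiles over the 6 libraries were sought for KAT2A and HDAC1, the acyltransferase and the deacylase with the highest RPKM. Nearness is the root mean square difference of mean-centred log2 CPM. For KAT2A the closest genes were MED24 at 0.02, CPSF1 at 0.03 and CORO2A at 0.03, where the median over tested genes was 0.27. For HDAC1 they were TMEM177 at 0.02, DDX56 at 0.02 and HNRNPL at 0.03, where the median was 0.24. These genes were picked as the closest of 16545 over 6 libraries, so they lie below the median by selection. Shared regulation was not tested.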

How the data were processed

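The labels' protocols name Trizol extraction and an Illumina TruSeq RNA kit. The submitters' processing notes list edgeR, StringTie, HISAT2, FastQC, Trimmomatic and CASAVA 1.8, and the GRCh38 build. What each did, the annotation and whether strand was used is not given in the sources used here. The authors deposited whole-number gene counts without normalization and, in a second table, RPKM. The main test on counts was the two-sided quasi-likelihood F test of edgeR 4.0.16 (R 4.3.3), with TMM scaling, filterByExpr, Benjamini-Hochberg adjustment across 16545 genes and a call at an adjusted p under 0.05. The SE is the size of the log2 fold change over the square root of F. Library totals started at 62323034 counts, and a gene's own counts set its counting error.

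The alternatives were DESeq2 1.42.0 size factors, library size only, other filters, the DESeq2 Wald test, limma 3.58.1 (voom, and trend on log2(RPKM + 1) or log2(RPKM + 0.1), a scale that understates the change of low genes), an adjusted p under 0.01, leaving out each library, the replicate number as a block, and the library set fits. The last used GENCODE 29 lengths and GC content, known for 98.9% of tested genes, with mgcv 1.9.3. The DESeq2 test was first run on all genes with a count. After its result was seen it was run on the genes kept by the main filter, and both counts are given in the closing section. The length, ratio, GC, coding sequence and promoter comparisons were added after the data were seen.

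The members and lists were chosen with earlier results of these data known. Beside the 10 enzymes and ABCF1, the naming rule took from each list the 2 genes of highest mean RPKM, and any called gene. The values of 1 of these list genes are not reported here. For KAT2A and HDAC1 it took the 3 nearest profiles. Within a group, chi-square divided by its degrees of freedom was at least 11.4 for each pair of libraries, so no pair agreed within sampling noise. The test was tested on simulated data in 3 runs. A first pass mark for genes changed 4-fold, set over all count levels, was narrowly missed in 1 run. It was then changed to genes with mean counts at the level of the 10 enzymes, which met it in each run. As the mark is for 4-fold changes, it does not show whether changes as small as those of the enzymes would be called.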

Additional observations from a re-analysis of the deposited data

How the results depend on the processing

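Across 21 alternatives the edgeR count of 0 called genes became 626 with the DESeq2 Wald test on the same genes, 112 when that test was run on all genes with a count (added after seeing the data), 4193 with the library set, 1803 with 4 libraries and 1105 with the length and GC offset, and stayed at 0 with any library left out. The called enzymes were 3 with the library set and 1 with the offset. Called list genes were 7 and 3 in those DESeq2 runs, 52 with the library set, 14 with 4 libraries and 12 with the offset. ABCF1 passed at -0.56 in both DESeq2 runs, -0.57 with the library set, -0.59 with 4 libraries and -0.64 with the offset. With the library set KAT2B (-0.30), HDAC3 (0.18) and HDAC2 (-0.19) passed. With the offset KAT7 passed (0.19) and HDAC2 turned to 0.11. KAT7 turned to -0.048 with library size only, -0.088 on log2(RPKM + 1) with or without a filter and -0.098 on log2(RPKM + 0.1). HDAC1 turned to -0.0079 with library size only, -0.012 on log2(RPKM + 1) with or without a filter and -0.013 on log2(RPKM + 0.1). The median of all genes was itself -0.10 with library size only and -0.067 on log2(RPKM + 1). It was -0.012 on that scale without a filter and -0.083 on log2(RPKM + 0.1). With a library left out, EP300 ran from -0.49 to 0.12, CREBBP from -0.34 to 0.11, KAT7 from -0.062 to 0.17, KAT5 from 0.093 to 0.33, KAT2A from 0.064 to 0.23, KAT2B from -0.39 to -0.17, HDAC1 from 0.047 to 0.11 and HDAC2 from -0.28 to -0.080. KAT8 ran from 0.16 to 0.25 and HDAC3 from 0.13 to 0.21. The cause of these changes was not tested. Same-numbered libraries did not deviate together (r = 0.11, -0.11 and -0.15), and the replicate block called 0 genes, with KAT2B at -0.30 and an adjusted p of 0.62.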
